A study of Oryza sativa with 4 samples.

Results

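The genes described here are the 9 cellulose synthase genes CESA1 to CESA9 of rice, named by their identifiers in the series' gene tables. All 9 are listed for the japonica cultivar Nipponbare, and CESA7 is the only one listed for the indica cultivar 93-11. The tables together hold 20567 genes, 13486 for 93-11 and 15657 for Nipponbare. The RNA came from protoplasts, plant cells released from their walls by enzymes, that were made from root tips of 5 mm. Both cultivars were untreated seedlings kept for 3 days in nutrient solution, and the labels name neither a mutation nor a transgene. Each cultivar has 2 libraries, listed as 93-11 replicates 1 and 2 and Nipponbare replicates 1 and 2. The protocol speaks of 800 crown roots in total, and no label ties the replicates to separate preparations, so the spread that p-values rest on here may be a technical one.

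Cellulose is made at the plasma membrane by rosette-shaped complexes whose catalytic subunits are CESA proteins, which join glucose from UDP-glucose into chains that assemble into microfibrils. A complex holds several kinds of CESA. CESA4, CESA7 and CESA9 act together in the thick secondary walls of xylem and fibre cells, and rice mutants in them have brittle culms. The other 6, CESA1, CESA2, CESA3, CESA5, CESA6 and CESA8, are grouped below as genes of the primary wall, the thin wall of dividing and growing cells. Genes with related functions are named from RefSeq's genes of rice (assembly ASM3414082v1). All 9 CESA symbols were found there on the chromosome that the identifier gives, and the 4 pairs on a shared chromosome stood in the order of their identifiers.

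Values are RPM, reads per 1000000 reads of the library. Library totals were inferred from the smallest value above 0 in each library, taken as 1 read. They lay between 21504426 and 21504715 reads, so that 1 read is worth 0.0465 RPM. Read numbers, floors, counting intervals and shares of reads rest on these totals. With them, 0 genes of either cultivar lacked a whole number of reads. Genes in the 93-11 table took 42.3% and 43.5% of the reads of its libraries, and those listed for Nipponbare took 55.6% and 55.7%. Across the 8576 genes listed for both cultivars the Pearson correlation of log2(RPM + 1) was 0.996 within 93-11, 0.998 within Nipponbare and 0.452 to 0.457 between cultivars, which is a description across genes. Decimal points were restored, as described below, by choosing the closest pair of libraries within a cultivar. The correlations within cultivars and the small spread behind the p-values rest partly on that choice. It set the value of 964 genes in 93-11 and 821 in Nipponbare. Of the 10 identifiers fixed as cell type markers, 5 are in both tables. The root hair marker EXPA17 had 18.5 and 19.5 RPM in 93-11, against 0.744 and 0.791 RPM in Nipponbare, and was tested only through its level in 93-11. Its 19.5 RPM rest on the other library, since the digits allow 42 or 420 reads, and with each library restored alone the difference of 3.50 on the log2 scale became 2.10 and was not called (limma adjusted p = 0.181). A root marker that RefSeq does not name was 2.26-fold higher in 93-11, and the stele marker PHO1;2 was 1.67-fold higher. Larger differences toward 93-11 were found for 53.2% and 57.1% of all tested genes. Both leaf markers are in neither table, so leaf RNA was not checked. Most RPM values had lost their decimal points, which were restored from the whole numbers of reads. If both true read numbers of a gene ended in 0, its restored values are 10 times too low. CESA genes resemble each other, and how reads that match several of them were counted is stated in no source used here, so levels of single members are uncertain to that extent.

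In Nipponbare the primary wall genes took most CESA reads. CESA6 (LOC_Os07g14850, chromosome 7), a primary wall subunit, had 205 RPM in replicate 1 and 204 RPM in replicate 2. CESA8 (LOC_Os07g10770, chromosome 7), also a primary wall subunit, had 166 and 168 RPM. CESA8 was at nearly the same value in the 2 libraries, while the closeness for CESA6 was set by the restoration described below. CESA1 (LOC_Os05g08370, chromosome 5), a core subunit of primary wall complexes, had 155 and 152 RPM. CESA3 (LOC_Os07g24190, chromosome 7) had 101 RPM in each library. CESA5 (LOC_Os03g62090, chromosome 3) followed with 45.3 and 43.8 RPM. These 5 genes were above 40 RPM in both libraries, while CESA2 stood far below them. CESA2 (LOC_Os03g59340, chromosome 3), the remaining gene grouped with the primary wall, had 5.49 and 4.93 RPM. It had 224 reads over both libraries against 8792 reads of CESA6, a ratio of CESA6 to CESA2 reads of 39.3 with an exact binomial interval of 34.4 to 45.0 at 95%.

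The value of CESA6 in replicate 1 needed the other library. Its digits alone allow 441 or 4410 reads, and the 4382 reads of replicate 2 set it to 4410. The digits of the other members gave the same read numbers with and without the other library, and those of CESA7 in Nipponbare had kept their decimal point.

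The 3 secondary wall genes lay at the low end in Nipponbare and differed from each other. CESA4 (LOC_Os01g54620, chromosome 1) had 6.65 and 5.999 RPM. CESA9 (LOC_Os09g25490, chromosome 9) had 3.12 and 2.33 RPM. CESA7 (LOC_Os10g32980, chromosome 10) had 0.0465 and 0.279 RPM, which are 1 read and 6 reads. The products of these genes are subunits of 1 kind of complex, yet their reads in Nipponbare stood at 272 for CESA4, 117 for CESA9 and 7 for CESA7 over both libraries. CESA4 had 2.32 times the reads of CESA9 (exact binomial interval 1.87 to 2.91) and 38.9 times those of CESA7 (18.6 to 97.6). CESA9 had 16.7 times the reads of CESA7 (7.86 to 42.5). Intervals and floors in this text cover counting error only.

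RPM is not divided by transcript length, and no length of these genes was used, so this order is one of reads and not of transcripts. By mean RPM in Nipponbare it ran CESA6 (204 ± 0.922 RPM), CESA8 (167 ± 1.28 RPM), CESA1 (154 ± 1.97 RPM), CESA3 (101 ± 0.428 RPM), CESA5 (44.5 ± 1.09 RPM), CESA4 (6.32 ± 0.460 RPM), CESA2 (5.21 ± 0.395 RPM), CESA9 (2.72 ± 0.559 RPM) and CESA7 (0.163 ± 0.164 RPM), each with SD and n = 2. In all 8 neighbouring pairs the libraries of one gene lay above those of the next. For CESA6 and CESA8 this holds only with replicate 1 of CESA6 restored to 4410 reads. In 7 pairs the counting intervals of single libraries were apart as well. The exception was CESA4 and CESA2, whose single-library intervals overlapped. Over both libraries CESA4 had 1.21 times the reads of CESA2, and the exact binomial interval of 1.01 to 1.46 lay just above 1. The step from CESA8 to CESA1 was smaller but rested on more reads, with a ratio of 1.09 (exact binomial interval 1.05 to 1.12).

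**Figure D1:**
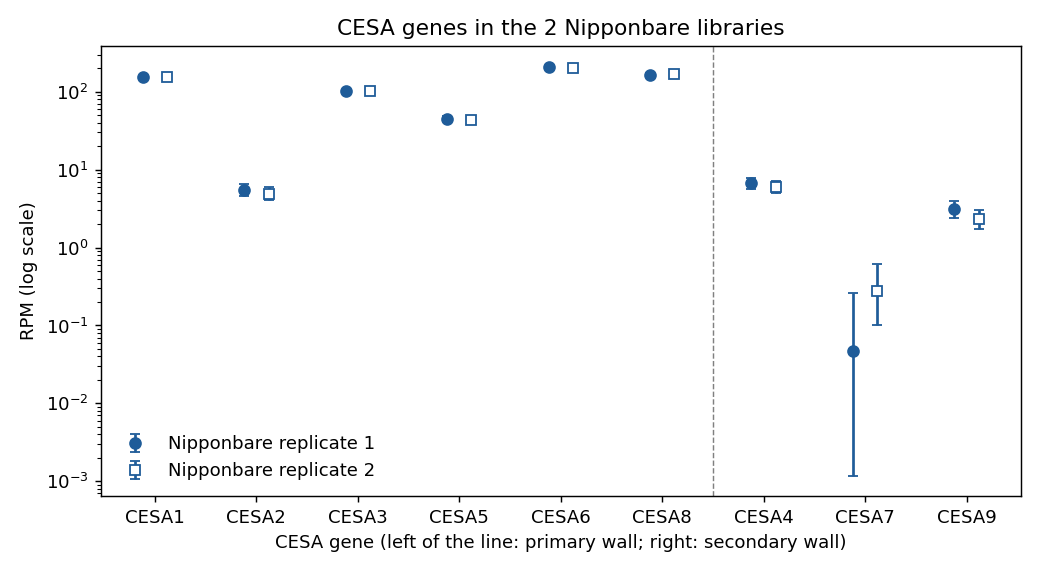
RPM of the 9 CESA genes on a log axis in Nipponbare replicate 1 (filled circles) and replicate 2 (open squares), with exact Poisson intervals of 95% for each library. The primary wall genes are left of the dashed line and the secondary wall genes right of it. CESA1, CESA3, CESA5, CESA6 and CESA8 lie above 40 RPM, CESA2, CESA4 and CESA9 between 2.33 and 6.65 RPM, and CESA7 below 0.3 RPM with wide intervals.

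The shares given here are of protoplast RNA, with no intact root tips to compare. As a share of all reads of the 9 genes, the secondary wall genes held 1.43% in Nipponbare replicate 1 (Wilson interval of 95% 1.25 to 1.63) and 1.26% in replicate 2 (1.09 to 1.46). Together they reached 9.21 ± 0.855 RPM, and the 6 primary wall genes 676 ± 3.52 RPM (SD, n = 2). The split between the abundant members was close in the 2 libraries, but it rests on the restoration that set CESA6 of replicate 1. With each library restored alone, CESA6 had 20.5 RPM in replicate 1 and 204 RPM in replicate 2. CESA6 held 29.8% and 29.9% of CESA reads, and CESA8 held 24.1% and 24.6%. CESA1 held 22.5% and 22.3%, and CESA3 14.7% and 14.8%. The replicates of a gene differed by 0.599% of their mean for CESA3 at the least, by a median of 3.45%, and by 143% for CESA7 at the most, where 7 reads decide. For all 9 genes the counting intervals of the 2 libraries overlapped, for CESA6 because the restoration chose the closest pair.

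The cultivars can be compared for CESA7, the only member in both tables. Of the genes listed for Nipponbare 45.2% are not in the 93-11 table, among them the other 8 members, whose levels in 93-11 were not analysed here. CESA7 had 14.2 RPM (305 reads) and 15.2 RPM (327 reads) in 93-11, against 0.0465 RPM (1 read) and 0.279 RPM (6 reads) in Nipponbare. Both libraries of 93-11 were high and both of Nipponbare close to 0, so the groups did not overlap. The mean was 14.7 ± 0.723 RPM in 93-11 and 0.163 ± 0.164 RPM in Nipponbare (SD, n = 2 each), a ratio of 90.3 with an exact binomial counting interval of 43.6 to 225. The 7 reads of Nipponbare limit it: leaving out its replicate 1 gave a ratio of 52.7, and leaving out its replicate 2 one of 316. Taken as log2(RPM + 1), where the added 1 makes the change of low genes look smaller, CESA7 was higher in 93-11 by 3.76 (SE 0.124, limma adjusted p = 4.93e-06).

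That call is common in this comparison. Of 7269 tested genes limma called 96.9% in either direction at an adjusted p of 0.05, 59.0% as higher in 93-11 and 37.9% as higher in Nipponbare, so the call itself sets CESA7 apart from few genes. CESA7 passed the filter of a mean of 1 RPM only through 93-11, where it is high. A larger difference toward 93-11 was found for 681 genes, which are 9.37% of those tested and 7.94% of the 8576 genes without the filter, and CESA7 lay 2.32 above the median difference of all tested genes, 1.44. After median-ratio scaling the difference of CESA7 was 3.47 and after quantile normalization 2.66, with medians of all genes of 1.03 and 0.59. The cultivars cannot be told apart from the preparations of their protoplasts, nor from any difference in alignment or annotation between their 2 tables. No source used here gives the build, the annotation or the reason a gene is listed. In bulk RNA, fewer cells of a type and less RNA per cell cannot be told apart either.

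**Figure D2:**
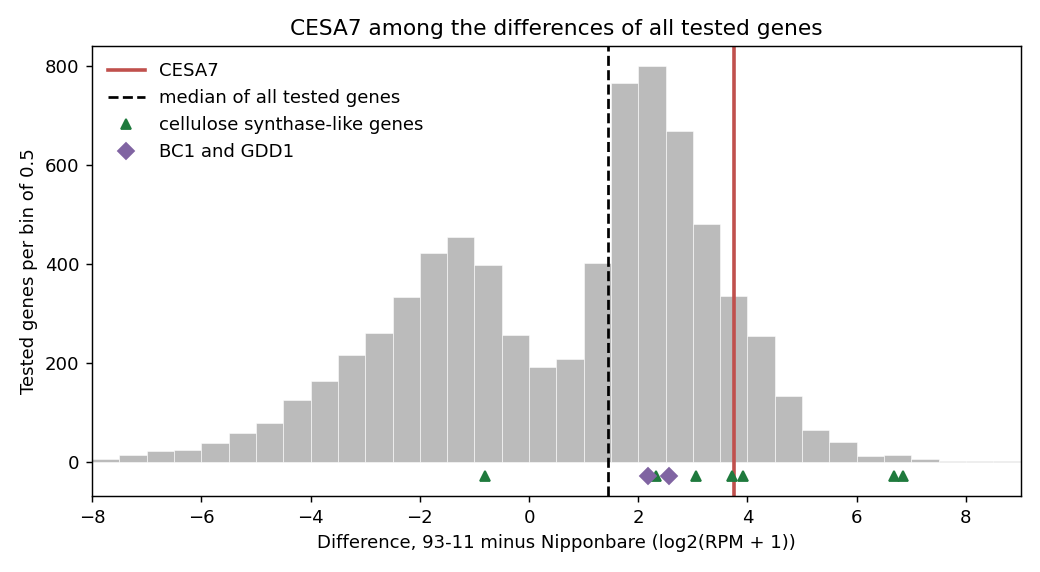
Number of tested genes per bin of 0.5 of the difference 93-11 minus Nipponbare in log2(RPM + 1), over 7269 genes. The red line marks CESA7 at 3.76 and the dashed line the median of all tested genes at 1.44. Triangles mark named cellulose synthase-like genes and diamonds BC1 and GDD1; CSLF8 is the only marked gene below 0. The bin from 0 to 0.5 holds 192 genes, against 455 in the bin from -1.5 to -1 and 800 in the bin from 2 to 2.5.

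Secondary walls of xylem lie in the stele, and the marker list holds 2 stele genes. Their summed level was 9.72 and 9.07 RPM in 93-11, against 4.70 and 4.60 RPM in Nipponbare. Most of it is PHO1;2 (LOC_Os02g56510), a gene of phosphate loading into the xylem, with 8.09 and 7.39 RPM in 93-11, against 4.70 and 4.60 RPM in Nipponbare. Its direction depends on the scaling: the difference was 0.63 as deposited (limma adjusted p = 0.00104), 0.17 after median-ratio scaling (limma adjusted p = 0.136) and -0.35 after quantile normalization (limma adjusted p = 0.0128). The other, SHR1 (LOC_Os07g39820), a transcription factor gene of the stele, had 1.63 and 1.67 RPM in 93-11 and 0 reads in both Nipponbare libraries, where a value of 0 allows up to 0.140 RPM. The part of stele content in the difference of CESA7 was not tested. The Nipponbare values of CESA4 and CESA9, the other secondary wall CESA genes, were 6.32 and 2.72 RPM on average, and neither gene is listed for 93-11.

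**Figure D3:**
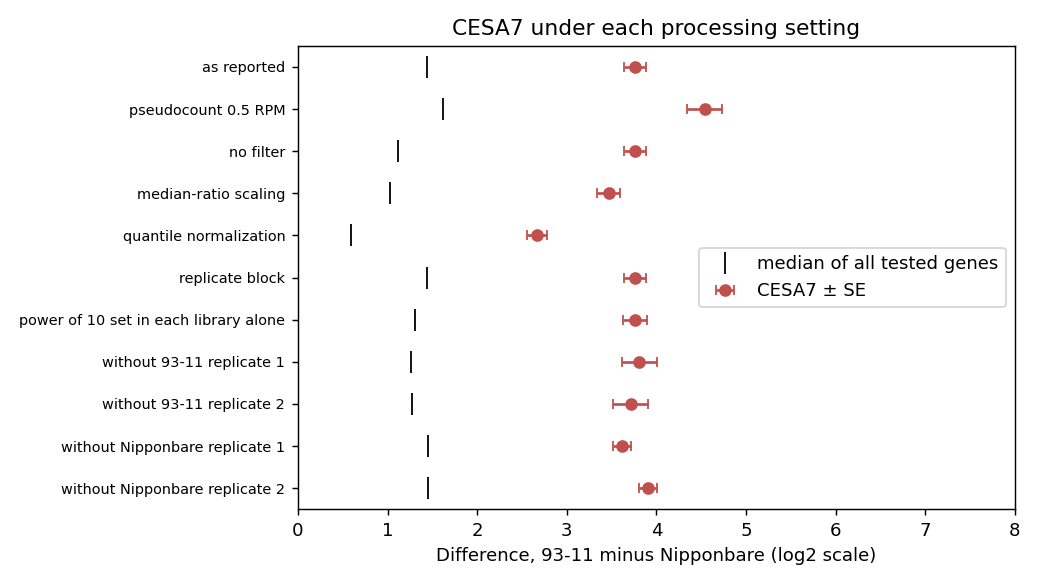
Difference of CESA7, 93-11 minus Nipponbare on the log2 scale, with its SE (red points and bars), and the median difference of all tested genes (black ticks) under each processing setting. CESA7 lies between 2.66 after quantile normalization and 4.54 with a pseudocount of 0.5 RPM, above the median of all genes in each setting.

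Other genes of wall polysaccharide synthesis were taken from lists chosen by function. The cellulose synthase-like (CSL) list holds 32 identifiers of enzymes related to CESA that make other wall polysaccharides, of which 25 had their symbol on the right RefSeq chromosome. The tables share 10 of the 32, with 3 for 93-11 only, 8 for Nipponbare only and 11 in neither. Of all genes listed for 93-11, 36.4% are listed for that cultivar only, and of those for Nipponbare 45.2%. Without the filter on low values, 9 of these 10 genes were called higher in 93-11 and 1 in Nipponbare, beside 61.5% and 34.4% of all 8576 genes. Their median difference was 3.39, against 1.12 for all genes. Setting the genes without a Nipponbare read to the floor could not move this median, since none of them lies next to it. With the filter 8 genes were tested, 7 higher in 93-11 and 1 in Nipponbare, but 4 of the 8 passed it only through 93-11, where they are high.

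CSLE6 (LOC_Os09g30130) had the largest difference of the named CSL genes, with 117 and 112 RPM in 93-11 and 0 reads in both Nipponbare libraries. It was at least 820-fold higher in 93-11, counted against a floor of 3 reads per library (limma difference 6.85, SE 0.0692, adjusted p = 7.28e-07). CSLF3 (LOC_Os07g36750), of the family that makes mixed-linkage glucan of grass walls, had 100.1 and 104 RPM in 93-11 and 0 reads in both Nipponbare libraries. It was at least 732-fold higher (limma difference 6.69, adjusted p = 7.28e-07). Its replicate 2 in 93-11 was set to 2240 reads by the other library, and read as 224 it gives a bound of at least 396-fold and a difference of 5.09 (limma adjusted p = 0.038). CSLE6 and CSLF3 were abundant in 1 cultivar and without a read in the other. Both passed the filter only through 93-11, where they are high. With 0 reads in both Nipponbare libraries, that cultivar adds no spread to their SE and adjusted p. CSLA1 (LOC_Os02g09930), of the mannan synthase family, had 86.2 and 76.7 RPM in 93-11, against 4.28 and 4.56 RPM in Nipponbare, 18.4-fold higher (difference 3.93, adjusted p = 1.56e-06). Unlike CSLE6 and CSLF3, CSLA1 had reads in both Nipponbare libraries.

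CSLF8 (LOC_Os07g36630), another gene of the mixed-linkage glucan family, went the other way. It had 0.698 and 0.791 RPM in 93-11, against 1.67 and 2.51 RPM in Nipponbare, a difference of -0.81 (SE 0.145, limma adjusted p = 0.00364). The groups did not overlap, but the values rest on 32 reads in 93-11 and 90 reads in Nipponbare. The call was lost without 93-11 replicate 1 (limma adjusted p = 0.127) and without 93-11 replicate 2 (limma adjusted p = 0.111). CSLA5 and CSLA9, both of the mannan synthase family, were below the filter, with 1.26 and 1.33 RPM on average in 93-11 and 0 reads in Nipponbare; they are named because they were seen to fall below it.

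**Figure D4:**
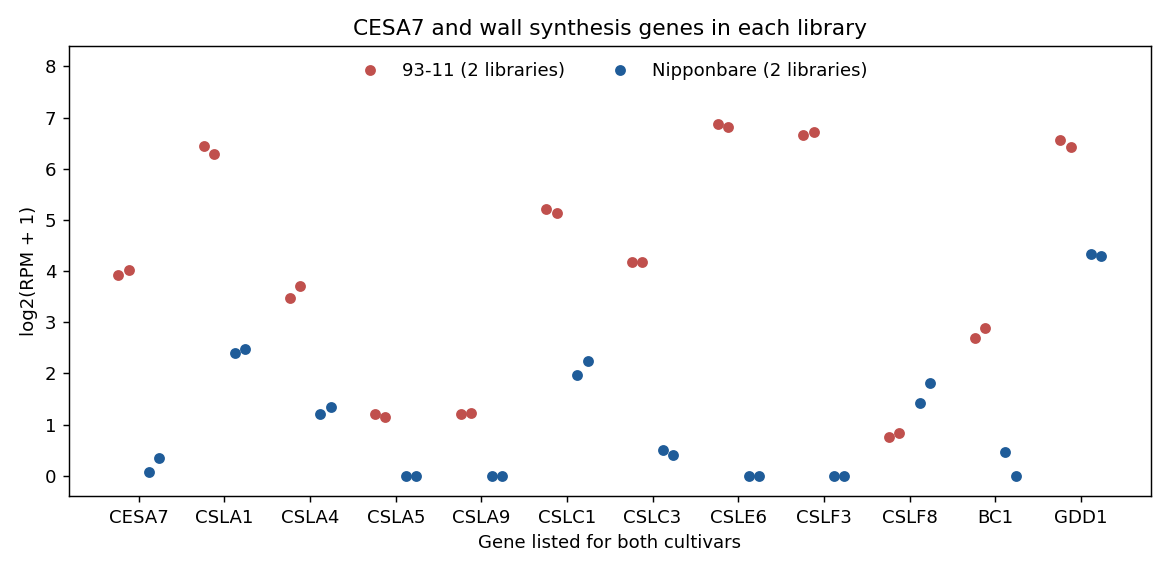
log2(RPM + 1) in every library for CESA7 and the named wall synthesis genes listed for both cultivars, with the 93-11 libraries (red) left of the Nipponbare libraries (blue) for each gene. The 93-11 points lie above the Nipponbare points for every gene shown except CSLF8, and CSLA5, CSLA9, CSLE6 and CSLF3 have 0 reads in both Nipponbare libraries.

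A list of 10 partners of cellulose synthesis, genes linked to cellulose in the wall or to the supply of its substrate, has 5 genes in both tables. All 5 were called higher in 93-11, also without the filter, where 61.5% of all genes were. Their median difference was 2.18, against 1.12 for all genes without the filter. RefSeq names 3 of the list, and the others were counted only. BC1 (LOC_Os03g30250), a COBRA-like protein gene whose loss gives brittle culms, had 5.44 and 6.42 RPM in 93-11, against 0.372 and 0 RPM in Nipponbare. It was 31.9-fold higher in 93-11 with a counting interval of 15.9 to 74.6, from 8 reads in Nipponbare (limma difference 2.56, adjusted p = 7.71e-05). All 8 reads are in replicate 1: leaving out Nipponbare replicate 2 gave a ratio of 15.9, and leaving out Nipponbare replicate 1 a bound of at least 42.5-fold against the floor of 3 reads. As with CESA7, BC1 passed the filter only through 93-11, where it is high, and both 93-11 libraries were above both Nipponbare libraries. GDD1 (LOC_Os09g02650), also called BC12 and listed in RefSeq under the symbol KIN4A, encodes a kinesin that affects the orientation of cellulose microfibrils. It had 93.1 and 85.4 RPM in 93-11, against 19.3 and 18.6 RPM in Nipponbare, 4.72-fold higher (difference 2.18, adjusted p = 3.29e-06). A further list, of 6 secondary wall regulators, had no symbol in RefSeq, so its genes are not named. It has 3 genes in both tables, of which 1 passed the filter and was called higher in 93-11, as were 59.0% of all tested genes. That call was lost with each library restored alone (limma difference 1.57, adjusted p = 0.357).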

How the data were processed

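Poly(A)-selected RNA of root tip protoplasts was measured in 2 libraries of 93-11 and 2 of Nipponbare. Per the submitters' processing notes HISAT2 2.0.4 and HTSeq 0.11.2 were used; no source used here gives the build, the annotation, the treatment of reads shared by gene family members or the reason a gene is listed. The authors deposited RPM values, 1 table per cultivar, in which values of 1 RPM and above had lost their decimal points. Each library total was inferred by taking the smallest value above 0 as 1 read. The power of 10 was set so that each value is a whole number of reads (tolerance 1e-06 reads) and the 2 libraries of a cultivar lie closest. Left out were 3 genes of 93-11 and 1 of Nipponbare whose pair differed by over 0.4 in log10. The planned test for RPM was kept and no count test was run. A value of 0 allows up to 3 reads, 0.140 RPM.

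Levels are given per library with exact Poisson, Wilson or exact binomial intervals of 95%. The cultivars were compared across all genes by limma 3.58.1 (R 4.3.3, trended variance) on log2(RPM + 1) for genes in both tables with a mean of at least 1 RPM, with Benjamini-Hochberg adjustment, called at 0.05. The fit and the restoration were tested on simulated data. The simulated restoration left out genes with few reads, among them CESA2, CESA4, CESA7 and CESA9 at their Nipponbare levels. Alternatives were the pseudocount, the filter, the scaling, the replicate block, the restoration of each library alone and leaving out each library. Named were all 9 members and, from each list, up to 3 called genes per direction with the largest difference and up to 3 genes of 1 table with the highest RPM, where RefSeq (ASM3414082v1) has the symbol on the identifier's chromosome. The alias GDD1 was added after the values were seen. Members and lists were chosen with earlier results of these data known. The planned scaling by coding length and search of promoters were not done, since no sequences or transcript lengths were used.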

Additional observations from a re-analysis of the deposited data

How the results depend on the processing

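CESA7 was called higher in 93-11 under every alternative that kept all libraries, with differences of 2.66 to 4.54 on the log2 scale. With 1 library left out its difference was 3.62 to 3.91. Such a call was common: 96.9% of 7269 tested genes were called as reported. CESA7 also passed the filter only through 93-11, so keeping its call sets it apart from few genes. The calls over all genes ranged from 3727 to 5278 higher in 93-11 and from 2232 to 3035 higher in Nipponbare, against 4290 and 2757 as reported. The replicate numbers did not pair the libraries: deviations of same-numbered libraries correlated at 0.0194, and the fit with the replicate number as a block made 4294 and 2776 calls and kept the difference of CESA7 at 3.76. With the power of 10 set in each library alone, CESA6 fell to 112 RPM and to place 3 in Nipponbare, CESA8 moved to place 1 and CESA1 to place 2, since its replicate 1 is then read as 441 reads. Under that setting 0 regulator genes were called higher in 93-11, since the tested one is then read as 388 and not 3880 reads in 93-11 replicate 1, and EXPA17 lost its call (2.10). Without the filter 3 regulator genes were called higher in 93-11, because more genes are tested, as were 61.5% of all 8576 genes. The regulator genes so added had means of 1.42 and 1.02 RPM in 93-11 and 0 reads in Nipponbare. Of the CSL list 0 to 1 gene was higher in Nipponbare with 1 library left out, as CSLF8 lost its call. PHO1;2 reversed to -0.35 after quantile normalization and was not called after median-ratio scaling (0.17); the cause was not tested. Of 16 differences of single list genes, those other than CSLF8, EXPA17 and PHO1;2 kept direction and call in these alternatives. The per-length order was not run, as no coding length was used. With 2 libraries a cultivar and 7 Nipponbare reads of CESA7, the depth sets a wide range for its ratio.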

Other observations

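Some wall synthesis genes are listed for 1 cultivar only and have no counterpart to compare. The same holds for 36.4% of all genes listed for 93-11 and 45.2% of those for Nipponbare. Listed for 93-11 only were CSLD2 (LOC_Os06g02180), of a family known for tip growth of root hairs, with 201 and 205 RPM, and CSLH1 (LOC_Os10g20090), of a family that makes mixed-linkage glucan, with 82.6 and 85.5 RPM. CSLD5, of the same family as CSLD2, had 0 and 3 reads. GLU1 (LOC_Os03g21210), a membrane-bound endoglucanase gene of the KORRIGAN type that acts in cellulose synthesis, had 9.72 and 8.28 RPM in 93-11. Listed for Nipponbare only were CSLF6 (LOC_Os08g06380), the main mixed-linkage glucan synthase gene of rice, with 23.7 and 21.5 RPM (replicate 1 was set to 510 reads by the other library and would be 2.37 RPM if read as 51), and CSLC7 (LOC_Os05g43530), of the xyloglucan backbone family, with 17.0 and 16.5 RPM. CSLD1 (LOC_Os10g42750), needed for root hairs in rice, had 5.63 and 4.93 RPM there. In each of these genes with over 100 reads the counting intervals of the 2 libraries overlapped, for CSLF6 with its replicate 1 set to 510 reads.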
